A study of Mus musculus with 20 samples.

Results

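The genes described here make, carry, sense and mark the inhibitory transmitter GABA and the cortical interneurons that release it. They were listed by symbol, and the listing used no measured value. All 34 listed genes were found among the 21949 genes of the deposited mRNA table, and all 34 passed the minimum for testing, a mean of 0.5 FPKM over the 20 libraries. The data are 5 libraries from each of 4 groups of cerebral cortex, and all mice had the strain (C57BL/6 x C3H)F1. TG10M and TG03M carried the transgene Tg(Prnp-MAPT*P301S)PS19Vle at 10 and 3 months of age, and WT10M and WT03M were wild type at the same ages. The transgene expresses human tau with the P301S change under the prion protein promoter, so it is not limited to interneurons. Replicates are numbered but not said to be separate animals, so every p-value refers to the spread among the libraries of these groups, which may be technical.

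GABA is made from glutamate by glutamate decarboxylases, loaded into synaptic vesicles, and sensed by chloride channels (GABA-A receptors) and by receptors coupled to G proteins (GABA-B receptors). In the cortex it is released by local interneurons, whose main classes are told apart by parvalbumin, by the peptides somatostatin and VIP, and by markers such as Lamp5 and reelin. Their timing of inhibition shapes cortical rhythms. In bulk tissue, fewer cells of a type and less RNA per cell cannot be told apart.

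FPKM is fragments scaled by transcript length and library size, so levels of different genes can be set side by side per length, and gene values are sums over transcripts. The steps between low values put the depth at 22.4 to 30.3 M (mega) fragments per library. Prnp, whose promoter drives the transgene, had 695 to 841 FPKM in TG libraries and 412 to 528 FPKM in WT libraries. The tissue carried all 11 listed markers of excitatory neurons. Markers of striatum, which lies under the cortex and is built mostly of GABA neurons, were all present too, with a summed level of 184 to 390.1 FPKM in TG10M, 349 to 486 in WT10M, 209 to 438 in TG03M and 194 to 446 in WT03M. Summed markers of thalamus were at 37.7 to 52.2 FPKM, of hippocampus at 16.7 to 28.2 (with Dsp, Lct and Iyd below 0.5), of choroid plexus at 88.7 to 1297 and of endothelium at 40.8 to 65.3 FPKM over the 20 libraries. Pan-neuronal markers summed to 3507 to 4114 FPKM, oligodendrocyte markers to 1508 to 1648 FPKM in TG10M, 1242 to 1592 in WT10M, 1588 to 1918 in TG03M and 1367 to 1523 in WT03M, and microglial markers to 310.1 to 391 FPKM in TG10M and 207 to 315 FPKM in WT10M. TG10M replicates 1 and 5 and WT10M replicate 5 stood apart on the first principal component, which held 23.9% of the variance, with scores of 26.2 to 30.9 against -12.1 to 2.52 in the 17 others. Hsp90aa1, a chaperone gene, was at 13.9 to 20.5 FPKM in these 3 libraries and in TG03M replicates 2 to 5, and at 532 to 687 FPKM in the 13 others. The labels name no batch that these patterns could be set against.

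No GABA or interneuron gene passed an adjusted p under 0.05 between genotypes or ages (limma on log2(FPKM + 0.5), Benjamini-Hochberg adjustment over 13722 genes). For TG10M against WT10M, 0 of 34 members were called, where 0.634% of all tested genes were. For TG03M against WT03M the count was again 0, beside 0.299% of all genes. With age, 0 members were called in TG (0.845% of all genes) and 0 in WT (0.0656%). For the difference between the genotype effects at the 2 ages, the interaction, 0 members were called and 0.0364% of all genes. An unadjusted p under 0.05 was reached by 11 members at 10 months, where 14.1% of all genes did so, and by 6 at 3 months, beside 10.6% of all genes. It was reached by 9 members with age in TG (16.1% of all genes), by 2 with age in WT (6.72%) and by 2 in the interaction (5.04%). The median difference over the members was 0.014 at 10 months and 0.0091 at 3 months, against 0.0006 and -0.0021 over all tested genes, with 18 and 17 of the 34 members positive. Single transcripts gave the same count of 0 among 59 tested member transcripts, where 0.174% of 24698 transcripts were called at 10 months, 0.0891% at 3 months, 0.194% with age in TG, 0.00405% with age in WT and 0.0121% in the interaction. Of the 59, unadjusted p-values under 0.05 were reached by 8 at 10 months and 9 at 3 months, beside 10.3 and 8.85% of all transcripts, by 10 with age in TG (12% of all transcripts), by 2 with age in WT (5.85%) and by 3 in the interaction (5.02%).

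**Figure D1:**
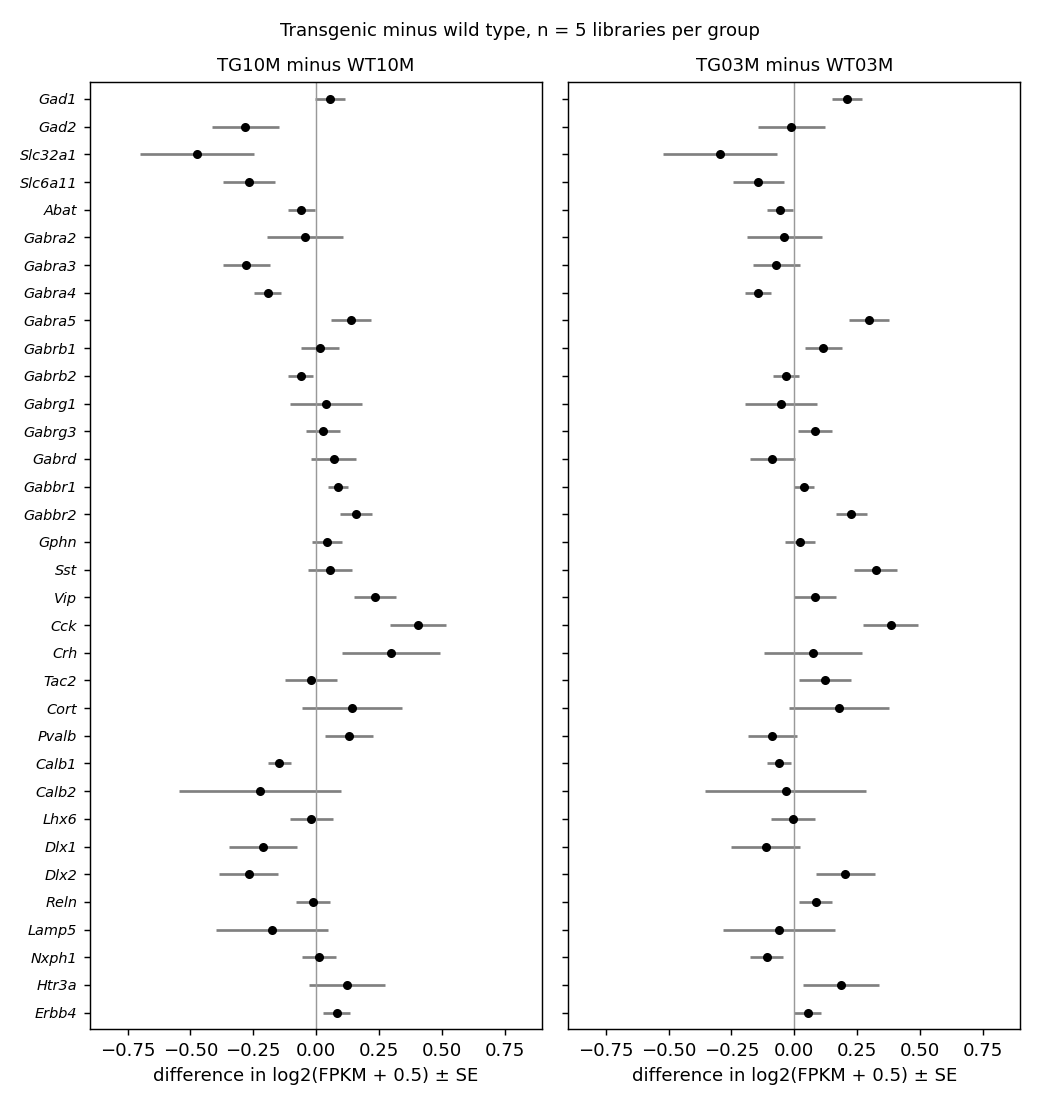
Difference in log2(FPKM + 0.5) between transgenic and wild-type cortex (horizontal axis, points with SE, n = 5 libraries per group) for the 34 genes, at 10 months (left) and 3 months (right). Cck has the largest positive point at both ages, 0.41 and 0.38, Slc32a1 the lowest, -0.47 and -0.30, and none passed the adjusted test.

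The 34 genes covered a wide range of levels. Cck had the highest mean over the 20 libraries, 582 FPKM, followed by Gabbr1 with 299, Sst with 226 and Gad1 with 160.1 FPKM. Pvalb had 92.4, Gabrb2 80.2, Abat 71.5, Gabbr2 66.8 and Lamp5 63.5 FPKM. At the low end stood Htr3a with 3.30 FPKM and Dlx2 with 0.948 FPKM, for which the depth gives about 30 to 100 fragments per library, so counting error alone is near 12.8% of its value. Cck rested on about 7048 to 16435 fragments. The highest library exceeded the lowest by a ratio of 4.65 for Calb2, 3.06 for Slc32a1 and 2.78 for Lamp5, and by a ratio of 1.14 for Gabbr1. In this order, Vip (35.8 FPKM) and Gabrb1 (33.6), or Gabra5 (22.6) and Slc6a11 (22.4), overlap widely over libraries, whereas every Cck library was above every Gabbr1 library.

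**Figure D2:**
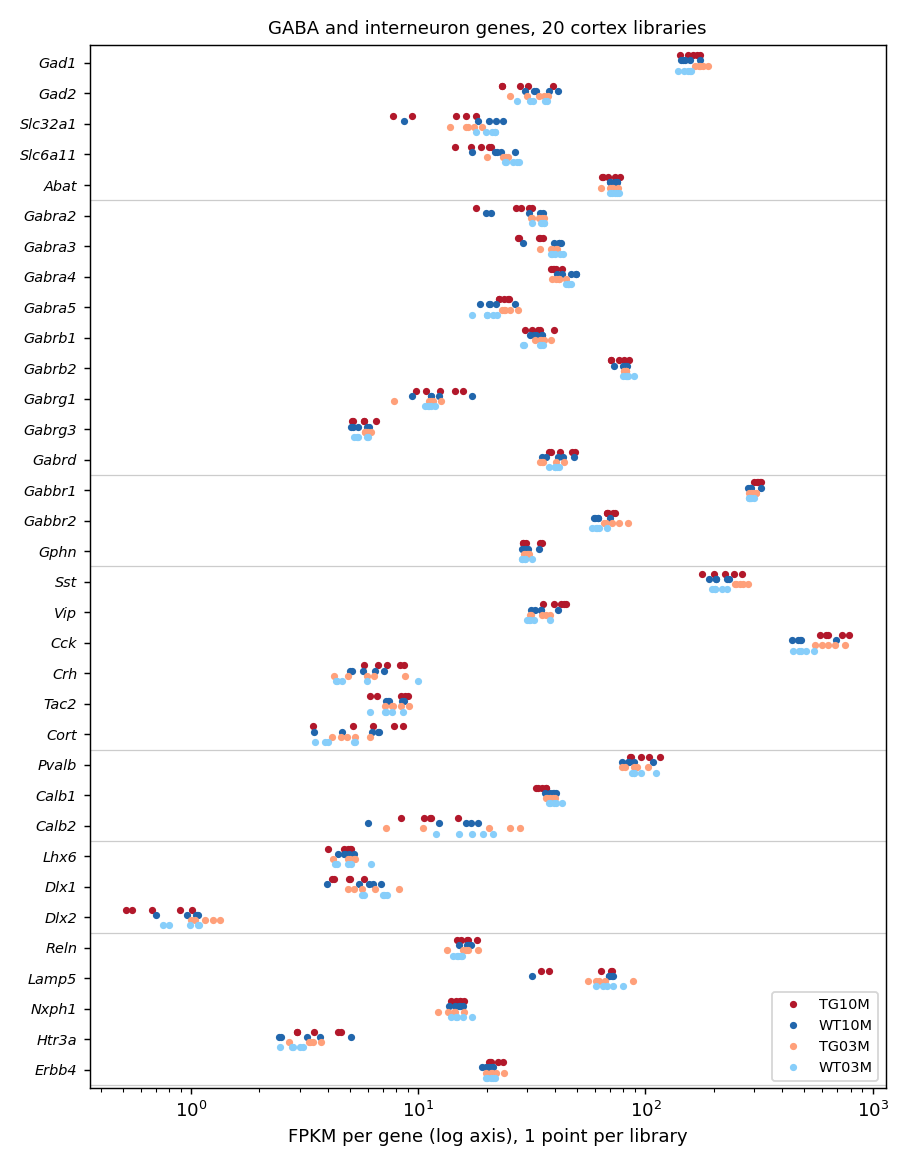
FPKM of the 34 genes (log axis, 1 point per library) in TG10M, WT10M, TG03M and WT03M, 5 libraries each, with lines between functional groups. Levels run from 790.2 FPKM in the highest Cck library to 0.517 in the lowest Dlx2 library, and most genes differ far more from each other than between groups.

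Among genes for the synthesis, packing, uptake and breakdown of GABA, Gad1 parted the genotypes at 3 months. Gad1 encodes the larger glutamate decarboxylase, which supplies most cellular GABA (ENSMUSG00000070880; GRCm38 chromosome 2, 70553072 to 70602014, plus strand). It had 179, 172, 164, 188 and 173 FPKM in TG03M, against 153, 158, 139.6, 148 and 157 FPKM in WT03M. Every TG03M library lay above every WT03M library, by a difference of 0.21 (SE 0.06, limma adjusted p = 0.171). At 10 months it had 160.1 ± 12.3 FPKM in TG10M and 153.9 ± 12.2 FPKM in WT10M (SD, n = 5 each), and these ranges overlapped.

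The 3-month difference in Gad1 sat in 1 short transcript model. Gad1-201, of 3355 bases and with the full coding sequence of 1779 bases, had 116, 108, 111, 114 and 98.0 FPKM in TG03M, against 104, 117, 110.3, 104 and 113 FPKM in WT03M. Its means, 109.4 ± 7.07 in TG03M and 109.7 ± 5.39 in WT03M, differed by -0.0051 (SE 0.05, transcript-level limma adjusted p = 0.986). Gad1-204, of 398 bases, had 59.8, 60.7, 51.0, 70.6 and 71.9 FPKM in TG03M, against 46.0, 38.4, 25.1, 40.1 and 39.9 FPKM in WT03M. Here the groups did not overlap, with a difference of 0.74 (SE 0.17, transcript-level limma adjusted p = 0.138). At 10 months Gad1-204 had 46.6 ± 9.12 FPKM in TG10M and 38.7 ± 8.26 FPKM in WT10M (0.26, SE 0.17, limma adjusted p = 0.606), and Gad1-201 had 110.5 ± 6.96 and 111.9 ± 4.80 FPKM. Of the 398 bases of Gad1-204, 346 are also in Gad1-201, and only its first exon of 52 bases, at chromosome 2, 70553072 to 70553123, is its own. Fragments from the shared bases have to be divided between the models by estimation. Summing only transcripts of at least 1000 bases, a choice made after these values were seen, gave Gad1 a 3-month difference of -0.014 (SE 0.05, limma adjusted p = 0.952). The 127 coding bases of Gad1-204, all identical in Gad1-201, are shown as the coding part of the 346 shared bases (GRCm38, plus strand, chr2:70563832-70563910 and chr2:70567186-70567233, start codon in capitals):
Gad1-204 coding bases: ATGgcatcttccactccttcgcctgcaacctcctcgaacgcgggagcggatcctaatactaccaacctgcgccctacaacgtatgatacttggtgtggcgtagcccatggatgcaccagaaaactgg

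**Figure D3:**
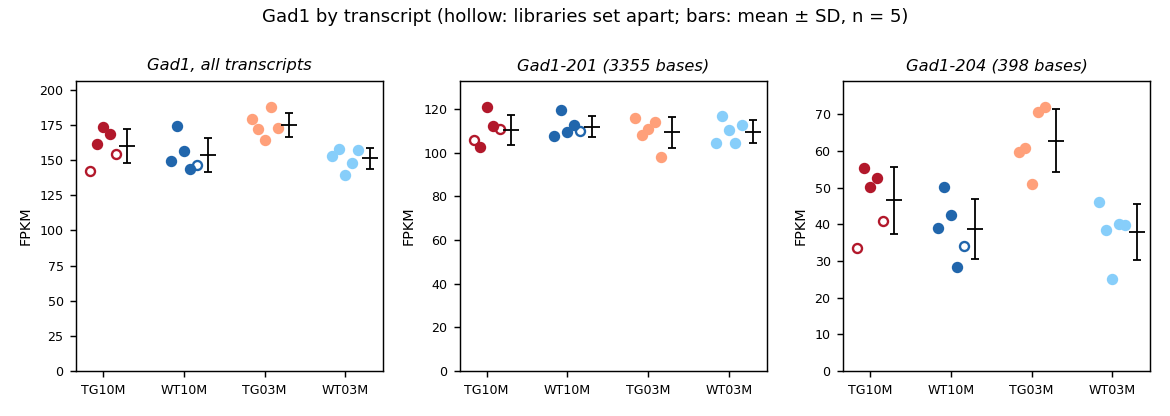
FPKM of Gad1 (left), of its long transcript Gad1-201 (middle) and of its short transcript Gad1-204 (right) in each library, with means and SDs (n = 5), hollow points being the 3 libraries that stand apart. The TG03M points lie above the WT03M points for the sum and for Gad1-204, and the long transcript's groups overlap.

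Gad2, the smaller decarboxylase found at nerve terminals, had 28.8 ± 6.50 FPKM in TG10M and 34.7 ± 4.69 FPKM in WT10M, a difference of -0.28 (SE 0.13, limma adjusted p = 0.353). With the striatum list as a covariate that difference was -0.066 (SE 0.11, limma adjusted p = 0.853). Other members moved less with it: Slc32a1 went from -0.47 to -0.33, Cck from 0.41 to 0.35 and Gabra3 from -0.28 to -0.31. Summed striatum markers were at 184.1 to 390.1 FPKM in TG10M and 348.6 to 486.5 in WT10M. The covariate is therefore partly mixed with genotype, and the part of striatal tissue was not tested. Slc32a1, the vesicular carrier that loads GABA, had 7.74, 14.7, 17.9, 16.1 and 9.40 FPKM in TG10M, against 20.4, 23.6, 22.1, 18.3 and 8.67 FPKM in WT10M. The lowest values of both groups came from the 3 libraries that stand apart, and the difference was -0.47 (SE 0.23, limma adjusted p = 0.354). Slc6a11, a GABA transporter mainly of astrocytes, had 14.5, 18.9, 20.8, 20.5 and 17.1 FPKM in TG10M, against 23.1, 26.5, 22.3, 21.9 and 17.2 FPKM in WT10M (-0.27, SE 0.10, limma adjusted p = 0.244). It had 23.99, 23.5, 24.9, 24.2 and 20.03 FPKM in TG03M, against 24.2, 27.1, 27.6, 24.0 and 26.02 FPKM in WT03M. The groups overlapped at both ages, at 10 months through WT10M replicate 5 alone. The summed astrocyte markers ran the other way in the same libraries, with 1402 to 1569 FPKM in TG10M and 1146 to 1288 FPKM in WT10M, and their part in the Slc6a11 values was not tested. Abat, the transaminase that breaks GABA down, had 69.9 ± 5.54 FPKM in TG10M, 72.7 ± 2.60 in WT10M, 70.4 ± 4.37 in TG03M and 73.2 ± 2.74 in WT03M. Part of Slc32a1, 697 of its 2797 exon bases, overlaps the antisense gene Gm14205, and the strand handling of the libraries is not given in the sources used here.

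GABA-A receptors are channels built of several subunits, and the 9 measured subunit genes had differences of both signs at each age. Gabra5, whose subunit serves mostly outside synapses, had 27.4, 23.9, 24.0, 25.2 and 23.4 FPKM in TG03M, against 21.2, 17.2, 19.99, 22.1 and 20.03 FPKM in WT03M. The groups did not overlap at 3 months, with a difference of 0.30 (SE 0.08, limma adjusted p = 0.138). The transcript Gabra5-202 gave the larger part of it, with 12.03 ± 1.52 FPKM in TG03M and 8.82 ± 1.44 FPKM in WT03M (0.43, SE 0.12, limma adjusted p = 0.242). At 10 months Gabra5 had 23.8 ± 1.20 FPKM in TG10M and 21.7 ± 3.01 FPKM in WT10M.

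Gabra4, the subunit that often pairs with delta outside synapses, had 38.3, 39.1, 42.8, 40.3 and 39.7 FPKM in TG10M, against 49.7, 42.9, 47.1, 49.2 and 40.8 FPKM in WT10M. TG10M replicate 3 and WT10M replicate 5 overlapped, and the difference was -0.19 (SE 0.05, limma adjusted p = 0.113). At 3 months it had 41.4 ± 2.14 FPKM in TG03M and 45.8 ± 1.002 FPKM in WT03M, a difference of -0.14 (SE 0.05, limma adjusted p = 0.318). Gabra3, another alpha subunit, had 27.4, 35.4, 34.5, 34.01 and 27.8 FPKM in TG10M, against 41.5, 39.6, 42.4, 41.6 and 28.9 FPKM in WT10M. Only WT10M replicate 5 fell within the TG10M range (-0.28, SE 0.09, limma adjusted p = 0.185). At 3 months Gabra3 overlapped, with 38.6 ± 2.58 FPKM in TG03M and 40.5 ± 2.04 FPKM in WT03M.

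Gabra2, an alpha subunit of synaptic receptors, had 27.1 ± 5.42 FPKM in TG10M, 28.3 ± 7.38 in WT10M, 33.6 ± 1.98 in TG03M and 34.5 ± 1.61 in WT03M. Gabrb2, the beta subunit of most cortical receptors, had 76.4 ± 6.20 FPKM in TG10M, 79.6 ± 4.24 in WT10M, 81.5 ± 1.02 in TG03M and 83.5 ± 3.28 in WT03M. Gabrb1, another beta subunit, had 33.7 ± 3.78 FPKM in TG10M and 33.2 ± 1.71 in WT10M, with 57.2% of its sum in a transcript model of 799 bases. Gabrd, the delta subunit of tonic inhibition, had 43.0 ± 5.24 FPKM in TG10M and 41.0 ± 5.30 in WT10M. Gabrg1 and Gabrg3, the less abundant gamma subunits, had 12.6 ± 2.48 and 5.66 ± 0.577 FPKM in TG10M, against 12.3 ± 2.96 and 5.53 ± 0.468 FPKM in WT10M. None of these differed between genotypes by more than 0.12 on the log2 scale at either age.

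GABA-B receptors need both of their subunits to signal. Gabbr2, the subunit that couples to the G protein, had 65.4, 67.1, 71.0, 76.7 and 84.0 FPKM in TG03M, against 60.4, 62.5, 58.2, 61.1 and 67.7 FPKM in WT03M. TG03M replicates 1 and 2 lay below the highest WT03M library, and the difference was 0.23 (SE 0.06, limma adjusted p = 0.156). At 10 months it had 69.8 ± 2.85 FPKM in TG10M and 62.6 ± 4.10 in WT10M (0.16, SE 0.06, limma adjusted p = 0.261). Gabbr1, the subunit that binds GABA, was the steadiest member, with 313 ± 8.36 FPKM in TG10M, 295 ± 15.7 in WT10M, 297 ± 9.10 in TG03M and 289.6 ± 6.26 in WT03M. Its main transcript model, Gabbr1-203, with 2532 coding bases, held 52.0% of the sum. A shorter model, Gabbr1-209, of 1595 bases with 687 coding, held 39.6%. Gphn, which encodes the scaffold gephyrin that holds GABA-A receptors at synapses, had 31.4 ± 3.06 FPKM in TG10M and 30.4 ± 2.14 in WT10M, and 30.03 ± 0.599 in TG03M and 29.6 ± 1.21 in WT03M.

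The peptide genes Sst and Cck both had every TG03M library above every WT03M library. Sst, the somatostatin gene of interneurons that target dendrites (ENSMUSG00000004366; GRCm38 chromosome 16, 23889573 to 23890958, minus strand), had 248, 260.0, 281, 269.9 and 251 FPKM in TG03M, against 218, 202, 203, 195 and 229 FPKM in WT03M. The difference was 0.32 (SE 0.09, limma adjusted p = 0.145). In TG10M its values, 177, 224, 266, 246 and 199.9 FPKM, surrounded those of WT10M, 204, 229, 232, 205 and 189.9 FPKM, with a difference of 0.057 (SE 0.09, limma adjusted p = 0.791). The interaction was -0.27 (SE 0.12, limma adjusted p = 0.962).

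Cck encodes cholecystokinin, made by a class of basket interneurons and, in cortex, by many excitatory neurons (ENSMUSG00000032532; GRCm38 chromosome 9, 121489824 to 121495694, minus strand). It had 557, 596, 638, 685 and 754 FPKM in TG03M, against 476, 549.6, 445, 485 and 511 FPKM in WT03M. The 3-month difference was 0.38 (SE 0.11, limma adjusted p = 0.176). At 10 months it had 733, 624, 586, 637 and 790.2 FPKM in TG10M, against 439, 478, 485, 471 and 689 FPKM in WT10M. WT10M replicate 5 was above 3 of the 5 TG10M libraries, and the other 4 WT10M libraries were below all of them (0.41, SE 0.11, limma adjusted p = 0.111).

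Vip, the gene of the peptide VIP in interneurons that mainly inhibit other interneurons, had 43.97, 39.7, 35.4, 44.8 and 42.3 FPKM in TG10M, against 34.5, 31.5, 32.7, 34.8 and 41.2 FPKM in WT10M (0.24, SE 0.08, limma adjusted p = 0.209). Without WT10M replicate 5 these ranges would not overlap. In TG03M it had 31.2, 31.1, 34.99, 36.7 and 38.1 FPKM, against 31.1, 38.1, 30.2, 32.2 and 30.7 FPKM in WT03M. Crh, the gene of corticotropin-releasing hormone, had 7.34 ± 1.21 FPKM in TG10M and 5.86 ± 0.872 in WT10M. Tac2, which encodes neurokinin B, had 7.76 ± 1.31 and 7.81 ± 0.677 FPKM in TG10M and WT10M. Cort, the gene of cortistatin, a relative of somatostatin, had 6.28 ± 2.06 and 5.54 ± 1.44 FPKM in TG10M and WT10M, on about 54 to 175 fragments per library.

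**Figure D4:**
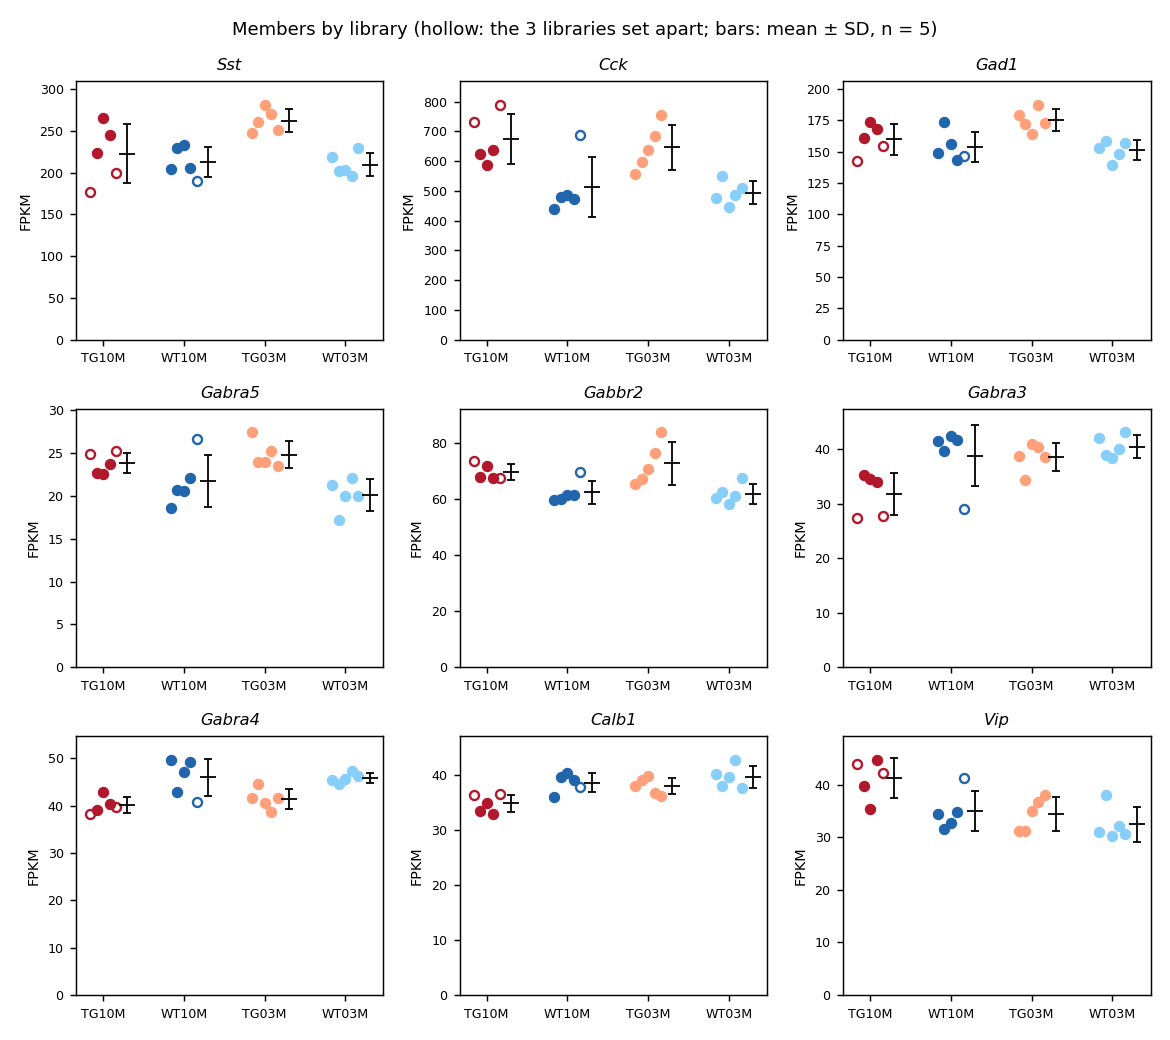
FPKM of 9 members in each library of TG10M, WT10M, TG03M and WT03M, with means and SDs (n = 5) and the 3 libraries that stand apart drawn hollow. The Sst, Cck, Gad1 and Gabra5 points of TG03M lie above all WT03M points, and the hollow WT10M point lies among the TG10M points for Cck, Gabbr2, Gabra3, Gabra4 and Vip.

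Several peptide genes are textbook targets of the factor CREB, which binds the full site TGACGTCA and its shorter form TGACG, so the 250 bases before the RefSeq start sites were read on both strands. Windows were at hand for 28 of the 34 members, 36 windows in all. The full site, which contains the shorter form on each strand, stood in 1.55% of 32851 windows of all genes and in 1 member, Sst. The shorter form stood in 17.8% of all windows and in 6 members, of which 4 are Sst, Cck, Vip and Cort, shown here with 30 bases around it in capitals (GRCm38.p6, RefSeq; 5′ to 3′ along the gene, CGTCA being TGACG on the other strand). Gad2 and Dlx2 also held it. Each of the 6 members has 1 window, so the shorter form stood in 6 of the 36 member windows. Of the other peptide genes, Tac2 did not hold it and Crh had no window to read.
Sst, chr16:23890874-23890903, minus strand: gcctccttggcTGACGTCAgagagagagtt
Cck, chr9:121495723-121495752, minus strand: ctgctggactgCGTCAgcactgggtaaaca
Vip, chr10:5639128-5639157, plus strand: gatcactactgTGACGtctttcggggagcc
Cort, chr4:149126764-149126793, minus strand: ctccggcttgtgCGTCAccgcgtgagtgtg
The site began 48 bases before the RefSeq start in Sst, 47 in Cck, 79 in Vip and 18 in Cort. For Sst the GENCODE start lies farther upstream, at 23890958, so the bases shown fall inside the gene span given above. The matches are of letters only.

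Calcium-binding proteins mark the other main classes. Calb1, the calbindin gene, also made by upper-layer pyramidal neurons, had 36.4, 33.5, 35.03, 33.1 and 36.6 FPKM in TG10M, against 36.1, 39.7, 40.4, 39.2 and 38.0 FPKM in WT10M. Only WT10M replicate 1 lay within the TG10M range, and the difference was -0.15 (SE 0.05, limma adjusted p = 0.158). Pvalb, the marker of fast-spiking basket cells, had 97.4 ± 13.0 FPKM in TG10M, 88.8 ± 11.0 in WT10M, 88.8 ± 9.46 in TG03M and 94.4 ± 9.91 in WT03M, with overlap throughout. Calb2, the calretinin gene, varied most of the members over the 20 libraries, with an SD of 38.7% of its mean. It had 11.3 ± 2.38 FPKM in TG10M, 14.0 ± 4.98 in WT10M, 18.3 ± 9.11 in TG03M and 16.9 ± 3.63 in WT03M.

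Transcription factors of the interneuron lineage were low. Lhx6, the factor of Pvalb and Sst cells, had 4.75 ± 0.424 FPKM in TG10M and 4.81 ± 0.292 in WT10M, and 4.93 ± 0.422 in TG03M and 4.97 ± 0.761 in WT03M. Dlx1, kept on in mature interneurons, had 4.83 ± 0.653 FPKM in TG10M, 5.72 ± 1.101 in WT10M, 6.08 ± 1.31 in TG03M and 6.55 ± 0.783 in WT03M. Dlx2, mostly of interneuron progenitors, had 0.670, 0.547, 1.01, 0.893 and 0.517 FPKM in TG10M, against 1.06, 0.958, 1.05, 1.07 and 0.699 FPKM in WT10M (-0.27, SE 0.12, limma adjusted p = 0.315). In TG03M it had 1.34, 1.15, 1.04, 1.25 and 0.998 FPKM, against 0.753, 1.09, 0.796, 0.989 and 1.08 FPKM in WT03M. Its interaction of -0.47 (SE 0.17, limma adjusted p = 0.934) had the smallest p of the members.

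Of the other markers, Lamp5, of neurogliaform cells and some upper-layer pyramidal cells, had 37.7, 70.5, 63.7, 71.6 and 34.7 FPKM in TG10M, against 71.9, 71.5, 69.3, 69.1 and 31.6 FPKM in WT10M. Its 3 low values are the 3 libraries that stand apart. Reln, the secreted guide of layering, had 16.3 ± 1.28 FPKM in TG10M and 16.4 ± 0.720 in WT10M. Nxph1, a secreted ligand of neurexins, had 15.0 ± 0.748 and 14.8 ± 0.769 FPKM in TG10M and WT10M. Erbb4, the neuregulin receptor of interneurons, had 21.6 ± 1.34 and 20.4 ± 0.940 FPKM in the same groups. Htr3a, a serotonin-gated channel subunit, had 3.67 ± 0.807 FPKM in TG10M and 3.38 ± 1.08 in WT10M.

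At 3 months the groups did not overlap for 4 of the 34 members, Gad1, Gabra5, Sst and Cck, all higher in TG03M, which is 11.8% of the members beside 4.48% of all tested genes. The chaperone Hsp90aa1 was low in 4 of the 5 TG03M libraries and in no WT03M library, and its part in these differences was not tested. Other measures parted the same groups without overlap. The mitochondrial gene mt-Co1 was at 8514 to 10630 FPKM in TG03M and 5998 to 6549 FPKM in WT03M, and the summed oligodendrocyte markers at 1588 to 1918 FPKM in TG03M and 1367 to 1523 FPKM in WT03M. Their part in these differences was not tested either. TG03M replicate 1 had Hsp90aa1 at 560.3 FPKM, like the WT03M libraries. It had 248 FPKM of Sst, 557 of Cck, 179 of Gad1 and 27.4 of Gabra5. The highest WT03M libraries had 229, 549.6, 158 and 22.1 FPKM. These 4 genes were picked for groups without overlap, so every TG03M library lies above WT03M by that choice. Replicate 1 is 1 library, the lowest of TG03M for Sst and Cck and the highest for Gabra5. For Gabbr2 it had 65.4 FPKM, below the highest WT03M library at 67.7 FPKM. Without the 3 libraries that stand apart, all of 10 months, 5 members passed at 3 months, with the same differences and smaller standard errors. They were Sst (0.32, limma adjusted p = 0.00392), Cck (0.38, adjusted p = 0.00496), Gabra5 (0.30, adjusted p = 0.0133), Gad1 (0.21, adjusted p = 0.0312) and Gabbr2 (0.23, adjusted p = 0.0395), where 3.44% of all genes were called. Other fits called Cck, Gabbr2, Gabra5 and Sst with array weights (1.90% of all genes), and Cck, Gad1 and Sst from the 3-month groups alone (1.61%). Leaving out WT10M replicate 5 alone called Cck and Gabra5 (0.772%). Of the transcripts, those of Cck and Sst and Gad1-204 passed without the 3 libraries (1.36% of all transcripts), and that of Sst passed from the 3-month groups alone (0.475%). Sst and Cck each have 1 transcript, of 721 and 691 bases, so the restriction to longer transcripts left both untested. Under that restriction, with all 20 libraries, Gad1 differed by -0.014 (limma adjusted p = 0.952). Gabra5 differed there by 0.30 (limma adjusted p = 0.143) and Gabbr2 by 0.23 (limma adjusted p = 0.157).

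At 10 months 0 members had groups that did not overlap, beside 2.38% of all genes. With the 3 libraries left out, the remaining 3 TG10M and 4 WT10M libraries did not overlap for 10 members, 29.4%, beside 17.9% of all genes. Gabra5, Gabbr1, Gabbr2, Vip and Cck were the 5 higher in TG10M, and Slc32a1, Slc6a11, Gabra3, Gabra4 and Calb1 the 5 lower. In that fit Cck (0.39, limma adjusted p = 0.0238) and Gabra3 (-0.25, limma adjusted p = 0.0263) passed, where 2.38% of all genes were called. Gabra4 stood at a limma adjusted p of 0.0511. Other measures parted the same TG10M and WT10M libraries. Summed striatum markers were at 184.1 to 390.1 against 434.7 to 486.5 FPKM, and mt-Co1 at 8627 to 8899 against 6379 to 6915. Astrocyte markers were at 1449 to 1569 against 1146 to 1230, and microglial markers at 310.1 to 378.1 against 207 to 246.7. Excitatory and pan-neuronal sums overlapped. The part of these measures was not tested. Array weights called 6 members, Calb1, Cck, Gabbr2, Gabra3, Gabra4 and Vip (6.89% of all genes). Leaving out WT10M replicate 5 alone, which keeps libraries that stand apart in TG10M only, called those 6 and Gabbr1, Gabra5, Slc32a1 and Slc6a11, where 11.7% of all genes were called. For transcripts the same omission called 7 of the 59 (3.86% of all transcripts), and array weights called 3, of Cck, Gabra3 and Gabra4 (1.09%).

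The 3 libraries that stand apart differed from the others in many of these genes, in both genotypes. They lay wholly outside the 17 others for 11 of the 34 members, 32.4%, beside 23.2% of all tested genes. The 6 lower ones were Slc32a1 (7.74 to 9.40 against 13.8 to 23.7 FPKM), Lamp5 (31.6 to 37.7 against 55.9 to 87.9), Gabra3 (27.4 to 28.9 against 34.01 to 43.1), Slc6a11 (14.5 to 17.2 against 18.9 to 27.6), Gabrb2 (70.2 to 72.4 against 76.6 to 88.7) and Dlx1 (3.96 to 4.25 against 4.91 to 8.19). The 5 higher ones were Gabrg1 (14.4 to 17.3 against 7.83 to 12.6 FPKM), Htr3a (4.45 to 5.08 against 2.44 to 3.73), Gabrd (47.6 to 49.1 against 34.4 to 43.6), Gphn (34.05 to 35.1 against 28.5 to 31.6) and Gabbr1 (320.4 to 322 against 282 to 312). These libraries were picked out by values that include these genes, so the figures are a description. Their summed excitatory markers were 849 to 878 FPKM, against 1068 to 1349 FPKM in the others. Pan-neuronal markers summed to 3507 to 3602 FPKM, against 3615 to 4114 in the others. Among interneuron genes, Gad1 (142 to 154 against 139.6 to 188 FPKM) lay within the range of the others. So did Pvalb, Vip, Crh, Tac2, Calb1, Calb2, Reln, Nxph1 and Erbb4. Gad2, Sst, Cck, Cort, Lhx6 and Dlx2 overlapped that range in part. Slc32a1, Lamp5 and Dlx1 lay below that range and Htr3a above it, as given above.

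**Figure D5:**
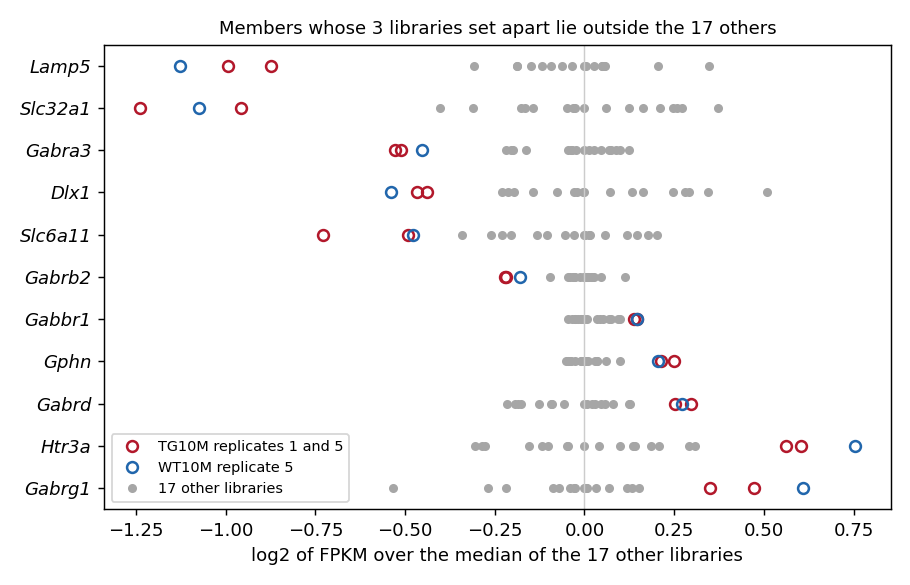
Log2 of each library's FPKM over the median of the 17 other libraries (horizontal axis) for the 11 members on which TG10M replicates 1 and 5 and WT10M replicate 5 (hollow) lie outside the 17 others (grey). The 2 TG10M points and the WT10M point fall on the same side for every gene, with Lamp5 and Slc32a1 farthest to the left and Htr3a and Gabrg1 farthest to the right.

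With age, the smallest p in TG was that of Dlx2, with the values above (-0.44 for TG10M over TG03M, SE 0.12, limma adjusted p = 0.0756). It passed without TG10M replicate 3 (-0.52, limma adjusted p = 0.0346), where 1.09% of all genes were called, and without WT10M replicate 5, together with Gabra3 and Slc6a11 (2.08% of all genes). Slc6a11 averaged 18.3 FPKM in TG10M and 23.3 in TG03M (-0.35, SE 0.10, limma adjusted p = 0.112). Vip averaged 41.2 FPKM in TG10M and 34.4 in TG03M (0.26, SE 0.08, limma adjusted p = 0.145). Gabra3 averaged 31.8 FPKM in TG10M and 38.6 in TG03M (-0.28, SE 0.09, limma adjusted p = 0.160), and Sst averaged 222 and 262 FPKM (-0.25, SE 0.09, limma adjusted p = 0.172). Both omissions above keep TG10M replicates 1 and 5, which stand apart. Without the 3 libraries that stand apart, each of these differences in TG was smaller in size, and none passed. There Dlx2 was at -0.34 (limma adjusted p = 0.336), Slc6a11 at -0.21 (0.340) and Vip at 0.21 (0.434). Gabra3 was at -0.15 (limma adjusted p = 0.325) and Sst at -0.099 (0.671). In WT the 2 smallest p belonged to Slc6a11 (22.2 FPKM in WT10M and 25.8 in WT03M, -0.22, limma adjusted p = 0.692) and Gabra2 (28.3 and 34.5 FPKM, -0.32, limma adjusted p = 0.712). Both age comparisons share libraries with the genotype comparisons.

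The rest of the pathway gave the same counts. Of 29 other GABA signalling genes 24 were tested and of 36 other interneuron genes 34, and 0 of either list passed with limma in any of the 5 comparisons. An unadjusted p under 0.05 was reached by 4 genes of each list at 10 months, by 3 GABA and 4 interneuron genes at 3 months, by 6 and 5 with age in TG, by 2 and 3 with age in WT, and by 4 and 2 in the interaction. The shares of all genes at this threshold are those given above beside the members. Gabra6, Gabre, Gabrq, Gabrr1 and Gabrr2 of the first list, and Nkx2-1 and Chrna2 of the second, were below the minimum. At 10 months the median difference was -0.094 over the other GABA genes and 0.0073 over the other interneuron genes, and at 3 months 0.0061 and 0.020. The smallest p at 10 months were those of Npy, the neuropeptide Y gene of several interneuron classes (0.41, SE 0.09, limma adjusted p = 0.0512), and of Slc6a13, a GABA transporter (0.54, SE 0.15, adjusted p = 0.114). At 3 months they were those of Clptm1, which regulates the traffic of GABA-A receptors to the surface (0.13, adjusted p = 0.184), and Krt73 (0.36, adjusted p = 0.251). With age in TG they were those of Slitrk3, an inhibitory synapse organizer (-0.21, limma adjusted p = 0.0862), and Elfn1 (-0.21, adjusted p = 0.151), and in WT those of Kctd8, an auxiliary GABA-B subunit (0.26, adjusted p = 0.525), and Rln1 (0.39, adjusted p = 0.616). In the interaction they were those of Gabarapl1 (limma adjusted p = 0.962) and Egfr (adjusted p = 0.907). Without the 3 libraries that stand apart, Npy (0.45, limma adjusted p = 0.0300) and Lhfpl4, a partner of GABA-A receptors at synapses (-0.25, adjusted p = 0.0283), passed at 10 months, where 2.38% of all genes were called. At 3 months Lhfpl4 (-0.23, limma adjusted p = 0.0106) and Clptm1 (0.13, adjusted p = 0.0189) passed, where 3.44% of all genes were called.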

How the data were processed

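RNA from cerebral cortex was sequenced in 20 libraries, 5 in each of TG10M, WT10M, TG03M and WT03M. The deposited values are FPKM per transcript, made by the authors, per the labels and the file headers. As build, the submitters' processing notes give GRCm38, also called mm10, and they list TopHat2, Cuffdiff, CASAVA and DESeq2, with what each was used for not given in the sources used here. FPKM was summed per gene ID. Genes with a mean of at least 0.5 FPKM were tested on log2(FPKM + 0.5) in limma 3.58.1 (R 4.3.3; 1 mean per group, trend, two-sided, 16 residual degrees of freedom), with Benjamini-Hochberg adjustment over all tested genes and a threshold of 0.05; transcripts were tested likewise. These differences understate the change of low genes. The fit was tested on simulated data. Depth came from low values of 1815 genes with 1 transcript of over 4000 bases, of which 87.5 to 100.0% per library lay within 0.1 of a whole fragment, on 31 to 55 values each, the depth being chosen to bring them there; no count test was run, since counts could not be had for genes with several transcripts. Replicates of a group shared at most 0.00595% identical values. Gene coordinates and transcript lengths are from the GENCODE annotation of GRCm38, and promoters from RefSeq.

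The members, the lists and the libraries that stand apart were chosen with earlier results of these data known. Every member is named, those with the smallest p in a comparison, and Lamp5 and others chosen after their values were seen, are given in every library of the groups compared, and of the other lists the gene with the smallest p per comparison and every called one are named. Alternatives were other pseudocounts, other filters, median centring, the compared groups alone, a replicate block, array weights, the striatum covariate, leaving out libraries and, added after the values were seen, transcripts of at least 1000 bases.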

Additional observations from a re-analysis of the deposited data

Results flagged for a closer look

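In 7 of the 136 sets of 5 libraries (34 genes in 4 groups), 1 library lay far from the other 4 by Dixon's criterion, which chance alone meets in about 1 of 20 such sets, and 5 of the 7 were WT10M replicate 5, a library that stands apart on the first principal component. In that library Cck was at 689.4 FPKM (439 to 485 in the 4 others), Gabra3 at 28.94 (39.6 to 42.4), Gabbr1 at 322.3 (282 to 293), Gabbr2 at 69.71 (59.6 to 61.7) and Lamp5 at 31.63 (69.1 to 71.9). In WT03M replicate 2, Gabra2 was at 31.75 FPKM (34.6 to 35.6 in the 4 others) and Vip at 38.11 (30.2 to 32.2).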

How the results depend on the processing

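No member passed in the analysis of all 20 libraries, and 0 passed with pseudocounts of 0.1 or 1, other filters on low values, median centring, the striatum covariate, or transcripts of at least 1000 bases, a choice added after the Gad1 values were seen, under which 29 members could be tested. At 10 months 6 members passed with array weights and 2 without the 3 libraries that stand apart; at 3 months 4 and 5 passed, and 3 with the 3-month groups alone. For transcripts array weights gave 3 at 10 months; at 3 months the groups alone gave 1 and the fit without the 3 libraries 3. Leaving out each replicate in turn gave 0 to 10 members at 10 months, 0 to 2 at 3 months and 0 to 3 with age in TG, with 0 with age in WT and in the interaction, and 0 to 7 transcripts at 10 months; the highest counts came without WT10M replicate 5. A block on the replicate number gave 1 member at 10 months, Cck (limma adjusted p = 0.0460), where 72 of 13722 genes, 0.525%, were called, and 0 in the 4 other comparisons. The values showed no pairing by replicate number: correlations of same-numbered libraries over 20 pairs ran from -0.425 to 0.66, and 4 libraries matched their own number best. The 0.66 is that of TG10M replicate 5 with WT10M replicate 5, which both stand apart. Such correlations cannot exclude a pairing. Of 170 differences, 62 changed sign under some of the 31 other settings, none of them called in the fit of all libraries, the largest at 0.31 in size. The causes of these changes were not tested. FPKM holds no counts, so the error from depth is known only roughly, and of the members with 1 transcript, Dlx2, Cort and Htr3a rest on the fewest fragments.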
